A study of Arabidopsis thaliana with 8 samples.

Results

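Dihydrophaseic acid (DPA) was set against abscisic acid (ABA) in 4 of the 8 libraries of the series, 2 from seedlings given DPA and 2 from seedlings given ABA. All seedlings were Arabidopsis thaliana wild type of the Columbia accession, grown for 10 days on MS medium in continuous light at 22 °C and harvested whole. The DPA group received 50 μM DPA for 3 h, the ABA group 50 μM ABA for 3 h, the phaseic acid (PA) group 50 μM PA for 3 h and the mock group no hormone. The groups were labelled as biological duplicates, and none carried a transgene or mutation. Polyadenylated RNA was sequenced as single 50-base reads. The members are the deposited DPA mean and the deposited ABA mean of each of 32678 loci with an AT identifier, joined by locus.

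ABA is the hormone of water deficit and seed dormancy. Bound by receptors of the PYR/PYL family, it blocks the clade A protein phosphatases 2C (PP2C), which frees the SnRK2 kinases to phosphorylate the ABF transcription factors, and these bind ACGTG elements in promoters. CYP707A monooxygenases hydroxylate ABA, the product closes into the bicyclic PA, and reduction of the ring ketone of PA to a hydroxyl group gives DPA, which is regarded as the inactive end of this route. The comparison therefore held dose, time and seedlings constant and asked which transcripts separate the catabolite from its parent hormone.

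Promoters of 5 loci with large differences in the contrast are shown first, since the elements that some of them hold recur below. They were chosen after their values were seen, so they do not show how common the elements are. Each is the 250 bases before the annotated gene start on the coding strand, read from the TAIR10.1 reference. Capitals mark ACGTG, and ACGTGGC or ACGTGTC (the ABA-responsive element, ABRE), found on either strand, where neighbouring or overlapping matches run together.
RD29B at chr5:21236771-21237020, plus strand: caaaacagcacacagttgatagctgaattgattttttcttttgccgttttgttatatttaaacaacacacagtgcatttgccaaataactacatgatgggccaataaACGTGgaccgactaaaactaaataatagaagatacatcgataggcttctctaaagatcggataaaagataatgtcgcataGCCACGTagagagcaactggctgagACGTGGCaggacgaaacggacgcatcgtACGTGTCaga
LEA7 at chr1:19619474-19619723, plus strand: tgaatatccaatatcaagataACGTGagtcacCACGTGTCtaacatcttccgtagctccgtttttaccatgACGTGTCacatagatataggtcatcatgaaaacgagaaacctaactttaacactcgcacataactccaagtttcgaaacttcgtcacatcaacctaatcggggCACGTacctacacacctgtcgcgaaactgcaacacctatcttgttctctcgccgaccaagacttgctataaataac
CYP707A1 at chr4:10521009-10521258, plus strand: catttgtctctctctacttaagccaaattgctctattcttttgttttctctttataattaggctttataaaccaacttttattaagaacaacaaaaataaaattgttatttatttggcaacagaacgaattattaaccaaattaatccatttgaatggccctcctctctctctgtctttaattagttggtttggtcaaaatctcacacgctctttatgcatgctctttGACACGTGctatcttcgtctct
HAI1 at chr5:23896940-23897189, minus strand: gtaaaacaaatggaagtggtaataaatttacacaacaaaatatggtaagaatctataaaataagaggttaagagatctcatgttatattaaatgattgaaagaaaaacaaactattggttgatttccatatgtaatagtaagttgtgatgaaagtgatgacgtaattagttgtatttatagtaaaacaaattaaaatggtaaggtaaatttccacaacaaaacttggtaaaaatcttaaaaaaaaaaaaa
CYP735A2 at chr1:25065447-25065696, minus strand: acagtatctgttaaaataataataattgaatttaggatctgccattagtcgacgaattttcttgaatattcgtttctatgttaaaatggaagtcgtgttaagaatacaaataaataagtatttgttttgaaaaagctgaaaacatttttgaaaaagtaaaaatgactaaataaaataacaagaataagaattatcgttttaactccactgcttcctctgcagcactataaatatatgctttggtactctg
RD29B held 3 ABREs, LEA7 held 2 and CYP707A1 held 1, and all of these genes were far lower with DPA. HAI1, also far lower with DPA, and CYP735A2, the gene with the largest log2 difference above ABA under the naming rule, held neither motif in this window.

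Values are normalized counts, reads divided by a size factor for each library. They are given for the library of the higher size factor and then for that of the lower, in DPA, ABA and mock seedlings. Gene reads numbered 13510463 and 13003026 in the DPA libraries and 15934091 and 11468318 in the ABA libraries. Replicates differed by a median of 0.120 on the log2 scale in the DPA pair and 0.135 in the ABA pair over 19617 genes. The mock pair differed more, by a median of 0.175. It had 792 genes at least 2-fold apart, against 420 in the DPA pair and 332 in the ABA pair. On the first principal component of all 8 libraries, which held 71.2% of the variance, the DPA libraries lay at -45.4 and -42.8, the ABA libraries at 82.2 and 80.2, while PA seedlings gave 3.57 and 5.69 and mock seedlings gave -47.7 and -35.9. The DPA and mock libraries shared the same end of this axis and the ABA libraries stood alone at the other.

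DPA and ABA, the single pair of compounds compared at matched dose and time, gave very different transcriptomes. Of 19617 genes whose mean reached 10 normalized counts, 6692 (34.1%) differed between DPA and ABA at an adjusted p under 0.05 in limma. With DPA, 3045 genes (15.5%) were higher, by a median log2 difference of 0.63, and 3647 genes (18.6%) were lower, by a median of -0.77. The balance depended on scaling: upper-quartile scaling, which moved the median of all genes by 0.0938, gave 4239 higher and 2974 lower, so the share of higher genes among the calls was 58.77% in place of 45.5%. Differences of at least 2-fold were found in 812 higher and 1432 lower genes, and differences of at least 16-fold in 33 higher and 146 lower genes. The genes lower with DPA took 14.70% and 14.99% of the gene reads in the DPA libraries, against 28.1% and 27.7% in the ABA libraries. The genes higher with DPA took 24.4% and 24.6% in the DPA libraries, against 15.3% and 15.2% in the ABA libraries. Of the 12925 genes with no call, 84.18% had a 95% interval of the difference that lay within 2-fold in both directions. The 2 DPA and 2 ABA libraries did not overlap in 13754 genes (70.1%), the background against which a lack of overlap in single genes is read. The counts of calls rested on having both libraries: they lay between 4579 and 4940 without any 1 of the 4 DPA and ABA libraries, and higher calls lay between 1921 and 2180.

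**Figure D1:**
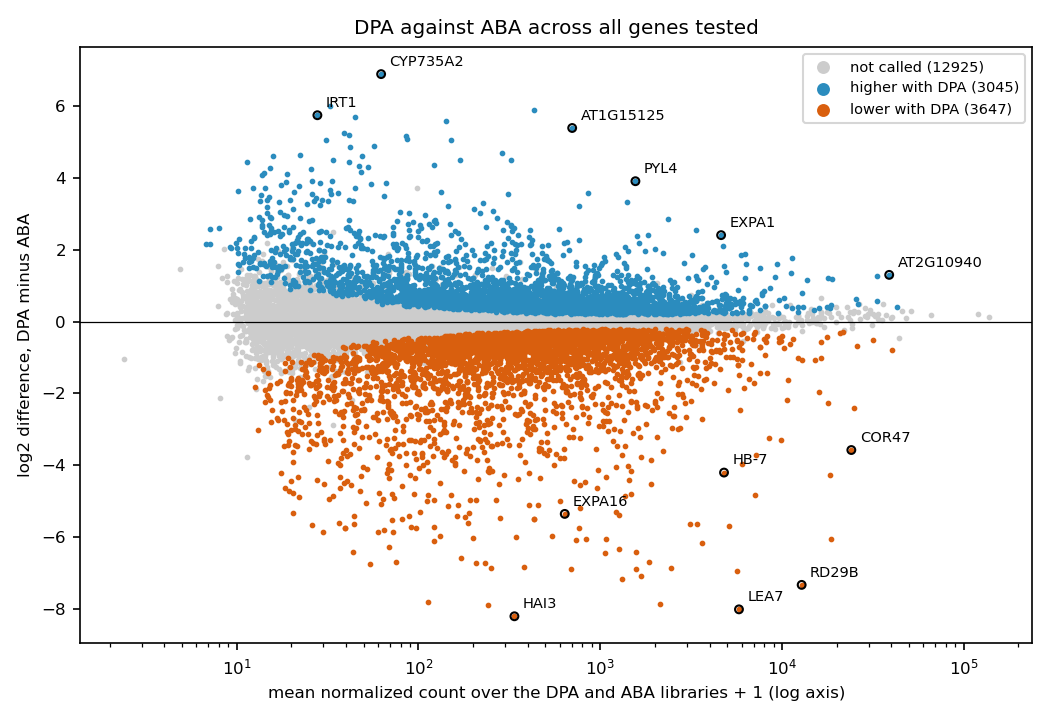
The log2 difference, DPA minus ABA (vertical axis), is plotted against the mean normalized count of the 4 DPA and ABA libraries plus 1 (horizontal log axis) for 19617 genes, 1 point a gene. Blue points are the 3045 genes higher with DPA, orange points the 3647 lower with DPA and grey points the 12925 not called, and the arm of lower genes reaches -8.21 at HAI3 while that of higher genes reaches 6.90 at CYP735A2.

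Against mock, DPA left few calls. Among 23970 genes in the authors' deposited table, 2 were called higher (0.00834%) and 1 lower (0.00417%) with DPA than with mock, with 220 (0.918%) at an unadjusted p under 0.05. Of 19617 genes, limma called 0, with 1081 (5.51%) unadjusted. Among 24069 genes in the authors' deposited table for ABA, 2481 were called higher (10.3%) and 1232 lower (5.12%) than with mock, with 5689 (23.6%) unadjusted. Limma called 6335 of 19617 between ABA and mock, with 8204 (41.8%) unadjusted. Both comparisons share the mock libraries, and how far their wider spread bears on these counts was not tested. AT1G15125, annotated as a methyltransferase-family locus, was called higher with DPA than with mock at a deposited log2 fold change of 1.04 (deposited adjusted p = 2.82e-08), and its deposited log2 fold change with ABA was -4.40. It had 1324 and 1417 normalized counts in DPA seedlings, 27.8 and 35.5 in ABA seedlings and 757 and 578 in mock seedlings, and it overlaps a neighbouring gene that could account for 12.2% of its count if reads were even. AT3G15356, annotated as a legume lectin family protein, had 723 and 646 in DPA seedlings, 419 and 415 in ABA seedlings and 453 and 361 in mock seedlings, so its ABA and mock libraries lay close together and its DPA libraries above both. AT3G09250, annotated as a nuclear transport factor family protein and called lower with DPA than with mock, had 1675 and 1555 in DPA seedlings, 2228 and 1567 in ABA seedlings and 2591 and 2805 in mock seedlings. Its DPA and ABA libraries overlapped and no difference was called between them (log2 difference -0.21, 95% interval -0.84 to 0.42, limma adjusted p = 0.605), and 53.6% of its count could come from the neighbouring PYK10 gene.

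Pathway by pathway, 280 of 304 members of 22 gene lists could be tested, of which 59 were higher and 118 lower with DPA than with ABA, beside 15.5% and 18.6% of all genes tested. The counts of each list below are to be read against these shares of all genes. No list member was called between DPA and mock. At an unadjusted p under 0.05, the authors' deposited table held 8 of 297 members (2.69%), beside 0.918% of all its genes. Limma held 28 of 280 (10.0%), beside 5.51% of all genes tested. Between ABA and mock, 155 members were called in the authors' deposited table. The median log2 difference, DPA minus ABA, was -0.0045 over all genes tested.

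**Figure D2:**
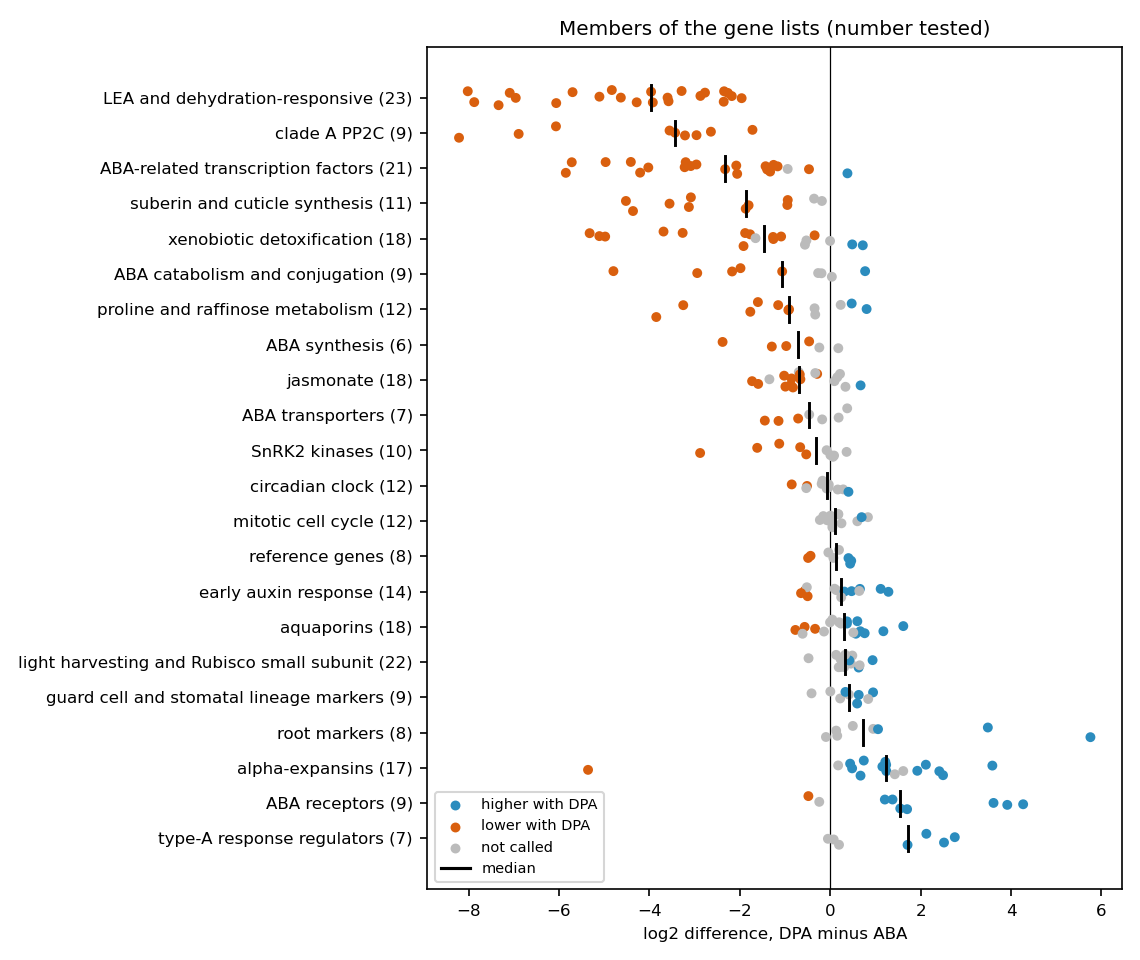
Each point is the log2 difference, DPA minus ABA, of 1 tested member of a gene list, with the number tested after the list's name and a black bar at the list's median. The medians run from -3.96 in the LEA and dehydration-responsive list to 1.71 in the type-A response regulators.

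Among the lists of ABA signalling and metabolism, the receptors alone had more members higher than lower with DPA. Of 9 receptors tested, 7 were higher, PYL9 was lower and PYL7 was not called, with a median log2 difference of 1.55, and 5 of the 14 receptors had too few reads to test. PYL4, a receptor of the family's monomeric branch, had 2679 and 3188 normalized counts in DPA seedlings, 202 and 184 in ABA seedlings and 2089 and 1892 in mock seedlings. The DPA libraries exceeded the ABA libraries by a log2 difference of 3.92 (SE 0.12, limma adjusted p = 4.45e-08). PYL5 had 231 and 257 in DPA seedlings, against 22.6 and 15.9 in ABA seedlings and 146 and 136 in mock seedlings. PYR1, the receptor that gave the family its name, differed less, with 1007 and 1179 in DPA seedlings, 387 and 356 in ABA seedlings and 938 and 861 in mock seedlings (log2 difference 1.55, SE 0.11, limma adjusted p = 6.14e-06). PYL6 had 59.9 and 36.1 in DPA seedlings and 1.74 and 1.22 in ABA seedlings, where it rested on 3 reads, so that its ratio of 31.6 has an exact counting interval of 10.5 to 156. PYL9 ran the other way, with 139 and 130 in DPA seedlings, 185 and 191 in ABA seedlings and 123 and 142 in mock seedlings (log2 difference -0.48, SE 0.13, limma adjusted p = 0.0149). That call was lost without the DPA library of the lower size factor (adjusted p = 0.0933) and without either ABA library (0.0592 and 0.0777). PYL7 overlaps a neighbouring gene, and its difference of -0.24 had a 95% interval of -0.60 to 0.12.

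The phosphatases that restrain the pathway were lower with DPA in 9 of 9 cases, with a median log2 difference of -3.43. HAI3 had the most negative difference of the genes that the naming rule admits, on the log2(count + 1) scale, with 0 and 4.13 normalized counts in DPA seedlings, 626 and 716 in ABA seedlings and 1.02 and 2.18 in mock seedlings (log2 difference -8.21, SE 0.65, limma adjusted p = 1.41e-05). It rested on 4 reads in DPA seedlings, and its ABA to DPA ratio of 327 has an exact counting interval of 127 to 1201. HAI1 had 24.97 and 25.8 in DPA seedlings, against 3178 and 3085 in ABA seedlings and 18.4 and 50.2 in mock seedlings. ABI1, the phosphatase first known from the ABA-insensitive abi1 mutant, had 550 and 574 in DPA seedlings, 4620 and 4137 in ABA seedlings and 610 and 678 in mock seedlings. In each of these genes the DPA libraries lay with the mock libraries and far from the ABA libraries. HAB2 had the smallest difference of the family, with 480 and 531 in DPA seedlings, 1707 and 1624 in ABA seedlings and 567 and 599 in mock seedlings, a log2 difference of -1.72 (SE 0.08, limma adjusted p = 5.31e-07). AHG1, a phosphatase known mainly from seeds, was scarce at 0.999 and 5.16 in DPA seedlings and 38.3 and 35.5 in ABA seedlings, and its call reached adjusted p values of 0.05001 without the DPA library of the higher size factor and 0.05105 without the ABA library of the higher size factor.

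Among the SnRK2 kinases, 5 of 10 were lower with DPA (beside 18.6% of all genes tested), 0 were higher (beside 15.5%) and the list's median was -0.30. OST1, the kinase that acts in guard cells to close stomata, had 290 and 300 normalized counts in DPA seedlings, 938 and 874 in ABA seedlings and 274 and 318 in mock seedlings (log2 difference -1.61, SE 0.10, limma adjusted p = 2.53e-06). SNRK2.7 had 26.0 and 38.2 in DPA seedlings, 202 and 280 in ABA seedlings and 22.5 and 26.2 in mock seedlings. SNRK2.1, SNRK2.9 and SNRK2.10 were lower by log2 differences of -0.66, -1.13 and -0.53, and SNRK2.9 lost its call without the DPA library of the lower size factor (adjusted p = 0.176) or the ABA library of the lower size factor (0.171). SNRK2.2, which acts in seed germination and root growth, had 1564 and 1703 in DPA seedlings and 1580 and 1547 in ABA seedlings, and the 95% interval of its difference was -0.12 to 0.24. The 5 kinases with no call had differences between -0.08 and 0.36.

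Of 21 transcription factors tied to ABA, 19 were lower with DPA, HB-5 was higher and ABI3 was not called, with a median of -2.32. The ABF factors, which bind the ABRE, differed in size: ABF3 had 320 and 318 normalized counts in DPA seedlings, 2986 and 2970 in ABA seedlings and 355 and 433 in mock seedlings, a log2 difference of -3.22 (SE 0.10, limma adjusted p = 3.89e-08). ABF2 and ABF4 were lower by log2 differences of -2.32 and -1.33. ABF1 had 302 and 323 in DPA seedlings, 428 and 437 in ABA seedlings and 335 and 327 in mock seedlings, the smallest difference of the 4 at -0.47 (SE 0.09, limma adjusted p = 0.00243). ABI5, a close relative of the ABFs that acts in germinating seeds, had 18.0 and 24.8 in DPA seedlings, 210 and 193 in ABA seedlings and 18.4 and 25.1 in mock seedlings.
The homeodomain factor HB-7 had 445 and 546 in DPA seedlings, 9259 and 8968 in ABA seedlings and 514 and 612 in mock seedlings. RD26, a NAC factor of the drought response, had 127 and 129 in DPA seedlings, 2810 and 2673 in ABA seedlings and 110 and 126 in mock seedlings. NAC019 and MYB41, a regulator of suberin deposition, were lower by log2 differences of -5.72 and -5.85, and MYB41 rested on 2 reads in DPA seedlings, giving an ABA to DPA ratio of 112 with an exact counting interval of 30.6 to 928. HB-5 had 2144 and 2190 in DPA seedlings, 1691 and 1636 in ABA seedlings and 2009 and 1912 in mock seedlings, so it was higher with DPA by 0.38 (SE 0.07, limma adjusted p = 0.00187). ABI3, known mainly from seeds, had 10.99 and 18.6 in DPA seedlings and 36.5 and 22.0 in ABA seedlings, with a 95% interval of -1.90 to 0.01.

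Of 6 genes of ABA synthesis tested, 4 had lower transcript counts with DPA (66.7%, beside 18.6% of all genes tested) and 0 higher (beside 15.5%). The other 4 of the 10 list members had too few reads to test. NCED3, which cleaves the carotenoid precursor at the step that limits ABA synthesis in drought, had 101 and 100 normalized counts in DPA seedlings, 538 and 517 in ABA seedlings and 89.9 and 110 in mock seedlings (log2 difference -2.38, SE 0.13, limma adjusted p = 1.22e-06). ABA1, the zeaxanthin epoxidase, and AAO3, the aldehyde oxidase of the last step, were lower by log2 differences of -0.97 and -1.29. ABA2, the short-chain dehydrogenase between them, had 205 and 203 in DPA seedlings and 177 and 184 in ABA seedlings, with a 95% interval of -0.19 to 0.55, and ABA4 had an interval of -0.53 to 0.05.

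The CYP707A hydroxylases, which open the route to PA, were lower with DPA in 4 of 4 cases, and CYP707A1 stood out with 102 and 100 normalized counts in DPA seedlings, 2616 and 3063 in ABA seedlings and 100 and 94.8 in mock seedlings (log2 difference -4.80, SE 0.10, limma adjusted p = 5.68e-09). CYP707A2, CYP707A3 and CYP707A4 followed at log2 differences of -2.94, -2.17 and -1.98. AT4G27250, listed as the reductase of the step from PA to DPA, had too few reads to test, with 4 in DPA seedlings and 1 in ABA seedlings. Of the 9 genes tested for ABA catabolism and conjugation, 5 were lower (55.6%, beside 18.6% of all genes tested) and 1 higher (11.1%, beside 15.5%). The gene that was higher, UGT71C5, encodes a glucosyltransferase that stores ABA as its glucose ester, and it had 364 and 344 in DPA seedlings, 210 and 203 in ABA seedlings and 319 and 323 in mock seedlings (log2 difference 0.77, SE 0.09, limma adjusted p = 0.000183). BGLU18, a glucosidase that releases ABA from this ester, had 7557 and 9261 in DPA seedlings, 17488 and 17455 in ABA seedlings and 6004 and 11706 in mock seedlings. Its log2 difference of -1.06 lost its call without the DPA library of the higher size factor (adjusted p = 0.0717) and without either ABA library (0.0576 and 0.0545). Among 7 transporters, 3 were lower (42.9%, beside 18.6% of all genes tested) and 0 higher (beside 15.5%). ABCG25, an exporter of ABA, was lower by -1.45 and ABCG22 by -1.14, while the importer NPF4.6 had a 95% interval of -0.05 to 0.42.

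**Figure D3:**
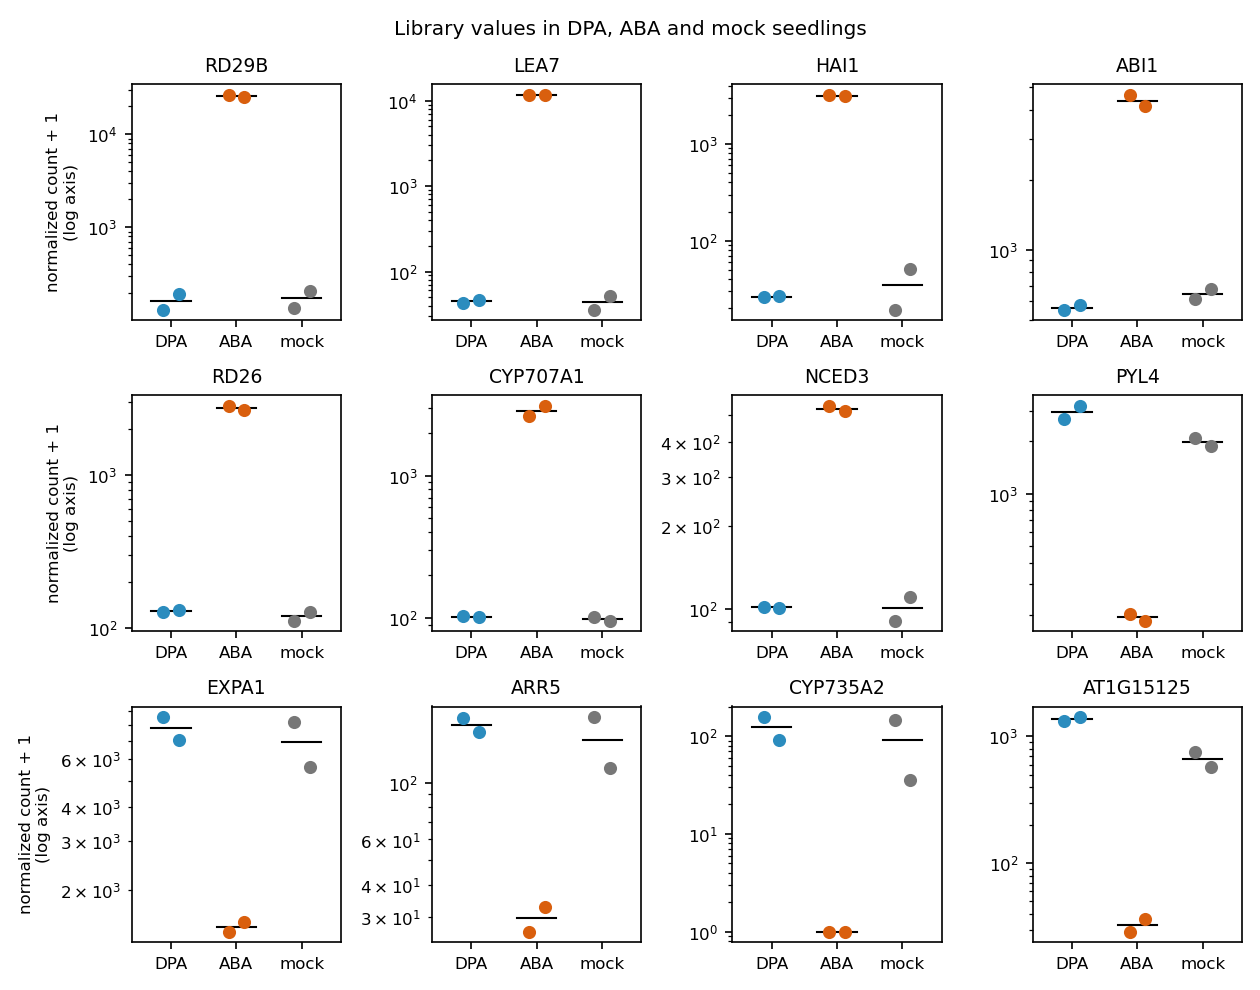
Normalized count plus 1 (log axis, its range set for each gene) in the 2 DPA, 2 ABA and 2 mock libraries for 12 genes, 1 point a library and a black bar at the mean of the 2 points. In the genes from RD29B to NCED3 the DPA points lie with the mock points below the ABA points, and in those from PYL4 to AT1G15125 they lie above the ABA points, which for CYP735A2 hold 0 reads.

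The protective proteins of dehydration gave the widest separation. All 23 genes of the late embryogenesis abundant (LEA) and dehydration-responsive list were lower with DPA, against 18.6% of all genes tested, with a median log2 difference of -3.96 and a smallest difference of -1.96 at RD22. Their values sum to 20204 and 22248 normalized counts in DPA seedlings, 267666 and 289912 in ABA seedlings and 21237 and 23836 in mock seedlings. RD29B, the usual reporter of the ABRE, had 130 and 190 in DPA seedlings, 26232 and 24838 in ABA seedlings and 137 and 208 in mock seedlings (log2 difference -7.34, SE 0.20, limma adjusted p = 2.87e-08). RD29A, its neighbour on the chromosome, had 510 and 592 in DPA seedlings, 34491 and 39136 in ABA seedlings and 568 and 700 in mock seedlings. LEA7 had 41.9 and 45.4 in DPA seedlings, 11588 and 11550 in ABA seedlings and 34.7 and 51.2 in mock seedlings. In all of these the DPA and mock libraries overlapped or lay side by side. COR47, a dehydrin with much higher counts in mock seedlings, had 3675 and 3773 in DPA seedlings, 42069 and 46914 in ABA seedlings and 3743 and 3650 in mock seedlings, and ERD10, another dehydrin, was lower by -4.28. KIN1, LEA4-5 and LTI30 were lower by log2 differences of -7.87, -7.09 and -6.96, with the caution that KIN1 has a near copy in COR6.6, between which reads may have been divided.

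Compatible solutes and barrier lipids followed in part. Of 12 genes of proline and raffinose metabolism, 7 were lower with DPA (58.3%, beside 18.6% of all genes tested) and 2 higher (16.7%, beside 15.5%). P5CS1, the rate-limiting enzyme of proline synthesis, had 1459 and 1790 normalized counts in DPA seedlings, 14783 and 16026 in ABA seedlings and 1630 and 2812 in mock seedlings. ERD5, the proline dehydrogenase that degrades it, was higher, with 896 and 934 in DPA seedlings, 501 and 546 in ABA seedlings and 1074 and 862 in mock seedlings (log2 difference 0.81, SE 0.12, limma adjusted p = 0.000829), and so was the proline transporter PROT1 at 0.48. GOLS2, which makes galactinol for raffinose synthesis, was lower by -3.85. Of 11 suberin and cuticle genes, 9 were lower and 0 higher. KCS2, an elongase of suberin fatty acids, had 201 and 125 in DPA seedlings, 3580 and 3726 in ABA seedlings and 136 and 133 in mock seedlings (log2 difference -4.52, SE 0.20, limma adjusted p = 3.40e-07). The suberin exporter ABCG6, the feruloyl transferase ASFT and the acyltransferase GPAT5 were lower by -4.36, -3.55 and -3.08. CYP86A1 and the transporter ABCG20 were not called, at log2 differences of -0.18 and -0.36 (limma adjusted p = 0.731 and 0.0607).

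ADC2, an arginine decarboxylase that starts polyamine synthesis, had among the highest counts of the genes with a 2-fold difference, at 8041 and 7808 in DPA seedlings, 44278 and 39415 in ABA seedlings and 7712 and 10344 in mock seedlings. TSPO, a membrane protein whose transcript is known to be induced by ABA, had 11.98 and 24.8 in DPA seedlings, 2530 and 2722 in ABA seedlings and 11.2 and 30.5 in mock seedlings. BGLU24 had 13.0 and 8.26 in DPA seedlings, 1212 and 1525 in ABA seedlings and 8.17 and 2.18 in mock seedlings. In all 3 genes the DPA libraries lay near the mock libraries and far below the ABA libraries. ATHSP22.0, which encodes a small chaperone of the heat shock response, had no read in the DPA libraries and 240 and 208 in ABA seedlings, so it was at least 147-fold lower with DPA by the floor of 3 reads over the group. AT5G28520, annotated as a mannose-binding lectin family protein, rested on 2 reads in the DPA libraries and had 502 and 461 in ABA seedlings, an ABA to DPA ratio of 477 with an exact counting interval of 132 to 3948.

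Lower genes outnumbered higher ones in the detoxification and jasmonate lists. Of 18 xenobiotic detoxification genes, 12 were lower (66.7%, beside 18.6% of all genes tested) and 2 higher (11.1%, beside 15.5%), with a median of -1.46. UGT74E2, a glucosyltransferase of the auxin indole-3-butyric acid, had 22.0 and 21.7 normalized counts in DPA seedlings, 823 and 750 in ABA seedlings and 4.09 and 16.4 in mock seedlings. GSTU4 and CYP81D8 were lower by -4.98 and -3.69. GSTU3 had no read in DPA or mock seedlings and 40.0 and 38.0 in ABA seedlings, at least 25.6-fold lower with DPA. GSTU20 was higher by 0.72, a call lost without the DPA library of the lower size factor (adjusted p = 0.0843) and without the ABA library of the higher size factor (0.096), and the count of higher genes in this list was 1 without any single 1 of the 4 libraries. Of 18 jasmonate genes, 10 were lower and 1 higher, and 6 were lower without the ABA library of the lower size factor. JAZ1, a repressor of jasmonate responses that is itself induced by the hormone, had 311 and 265 in DPA seedlings, 967 and 939 in ABA seedlings and 203 and 161 in mock seedlings (log2 difference -1.73, SE 0.14, limma adjusted p = 1.76e-05). MYC2, the central factor of the pathway, and the storage protein gene VSP2 were lower by -0.87 and -1.59, while the repressor JAZ6 was higher by 0.67.

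Most alpha-expansins were higher with DPA. Of 17 alpha-expansins, proteins that loosen cell walls, 13 were higher with DPA and 1 lower, against 15.5% and 18.6% of all genes tested, with a median log2 difference of 1.24. EXPA1 had 8536 and 7070 normalized counts in DPA seedlings, 1401 and 1515 in ABA seedlings and 8186 and 5619 in mock seedlings (log2 difference 2.41, SE 0.16, limma adjusted p = 4.13e-06). EXPA8 had 3632 and 3421 in DPA seedlings, 892 and 963 in ABA seedlings and 3291 and 3516 in mock seedlings. EXPA16 was the exception, with 26.0 and 33.0 in DPA seedlings, 1368 and 1124 in ABA seedlings and 28.6 and 44.7 in mock seedlings (log2 difference -5.36, SE 0.22, limma adjusted p = 2.42e-07). The family therefore held a member near the foot of the contrast among relatives that were higher.

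Of 18 aquaporins, 8 were higher with DPA (44.4%, beside 15.5% of all genes tested) and 3 lower (16.7%, beside 18.6%). The share of lower genes did not exceed that of all genes. TIP2;1, a channel of the vacuolar membrane, had 14132 and 14095 normalized counts in DPA seedlings, 4629 and 4572 in ABA seedlings and 13121 and 14308 in mock seedlings (log2 difference 1.62, SE 0.08, limma adjusted p = 7.96e-07). TIP1;2 was higher by 1.18, and the plasma membrane channel PIP2;6 was lower by -0.57. The counts of this list were fragile: 4 were higher without the DPA or the ABA library of the higher size factor, and 1 was lower without the DPA or the ABA library of the lower size factor.

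Of 7 type-A response regulators, which are induced by cytokinin and dampen its signal, 4 were higher with DPA and 0 lower. ARR5 had 178 and 157 normalized counts in DPA seedlings, 25.2 and 31.8 in ABA seedlings and 179 and 113 in mock seedlings (log2 difference 2.52, SE 0.25, limma adjusted p = 6.45e-05). ARR7 had 266 and 168 in DPA seedlings, 26.1 and 35.5 in ABA seedlings and 252 and 139 in mock seedlings. ARR4 was higher by 1.71 and ARR6 by 2.13, and 41.1% of the ARR6 count could come from an overlapping gene. ARR8, ARR9 and ARR16 were not called, and their DPA and ABA libraries overlapped. The 95% interval of the difference was -0.17 to 0.56 for ARR8, -0.26 to 0.41 for ARR9 and -0.71 to 0.61 for ARR16. CYP735A2, the hydroxylase that turns isopentenyl cytokinins into trans-zeatin types, had the largest log2 difference among the genes the naming rule admits as higher (6.90 on the log2(count + 1) scale), with 155 and 90.9 in DPA seedlings, no read in ABA seedlings and 144 and 34.9 in mock seedlings. It was at least 80.5-fold higher with DPA by the floor of 3 reads over the group.

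Of 14 early auxin genes, 5 were higher with DPA (35.7%, beside 15.5% of all genes tested) and 3 lower (21.4%, beside 18.6%). The share of lower genes was near that of all genes. IAA19 and IAA4 were higher by 1.29 and 0.66, and IAA13 and IAA14 were lower by -0.56 and -0.50. Without the DPA library of the lower size factor 3 were higher.

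Other genes with log2 differences among the largest above ABA rested on few or no reads with ABA. AT3G46880 had 59.9 and 67.1 normalized counts in DPA seedlings, no read in ABA seedlings and 34.7 and 38.2 in mock seedlings, at least 41.6-fold higher with DPA. AT1G27020 had 1087 and 608 in DPA seedlings, 13.0 and 12.2 in ABA seedlings and 521 and 265 in mock seedlings. AACT1, an acyltransferase of agmatine conjugates, had 331 and 222 in DPA seedlings, 4.35 and 4.90 in ABA seedlings and 112 and 82.9 in mock seedlings. In both genes the DPA libraries lay above the mock libraries, though neither was called against mock. AT4G34770, of the SAUR-like auxin-responsive family, had 152 and 181 in DPA seedlings, 2.61 and 4.90 in ABA seedlings and 128 and 82.9 in mock seedlings, a DPA to ABA ratio of 46.6 (exact counting interval 22.4 to 117). AT1G29090, AT1G05700 and AT5G19890, annotated as a cysteine proteinase, a leucine-rich repeat kinase and a peroxidase, had 2, 3 and 2 reads in the ABA libraries, and their DPA to ABA ratios were 84.8 (exact counting interval 23.1 to 706), 49.2 (16.5 to 241) and 79.4 (21.6 to 661).
Among abundant transcripts, AT2G10940 had 57181 and 53639 in DPA seedlings, 20422 and 24555 in ABA seedlings and 57279 and 52694 in mock seedlings, and AT2G45180, annotated like it as a lipid-transfer family protein, had 47207 and 46655 in DPA seedlings, 20662 and 18195 in ABA seedlings and 47018 and 41961 in mock seedlings. GER1 was higher by 1.19, and 38.5% of its count could come from an overlapping gene.

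Markers of organs and cell types were read as a check of the tissue, and in whole seedlings fewer cells of a type and less RNA per cell cannot be told apart. Root and leaf transcripts were present in all groups, as fits whole seedlings. Of 8 root markers tested, 3 were higher with DPA (37.5%, beside 15.5% of all genes tested) and 0 lower (beside 18.6%). Their summed normalized counts were 36567 and 30221 in DPA seedlings and 22404 and 24671 in ABA seedlings, of which PYK10, the root glucosidase, made most. PYK10 was not called (log2 difference 0.50, limma adjusted p = 0.0553), though it was in 8 of the alternatives. The root markers that were higher are transporters of nutrients: IRT1, the iron importer, had 61.9 and 45.4 in DPA seedlings, no read in ABA seedlings and 124 and 45.8 in mock seedlings, at least 35.2-fold higher with DPA. NRT2.1, a nitrate importer, had 30.0 and 23.8 in DPA seedlings and rested on 3 reads in ABA seedlings, a ratio of 17.6 (exact counting interval 5.72 to 88.2), and was lost without the DPA library of the higher size factor (adjusted p = 0.055). PHO1, which loads phosphate into the xylem, was higher by 1.06.
Of 9 guard cell and stomatal lineage markers 4 were higher (44.4%, beside 15.5% of all genes tested) and 0 lower (beside 18.6%). Their sums were 1896 and 1872 in DPA seedlings and 1344 and 1476 in ABA seedlings. KAT1, an inward potassium channel of guard cells, and the factor MYB60 were higher by 0.63 and 0.95, and 2 of the markers were higher without either DPA library or without the ABA library of the higher size factor. The part of these markers in the other results was not tested.

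Of 22 genes for light harvesting proteins and small subunits of Rubisco, 3 were higher with DPA (13.6%, beside 15.5% of all genes tested) and 0 lower (beside 18.6%), at most 0.94 on the log2 scale. RBCS1B had 11358 and 11263 normalized counts in DPA seedlings, 5686 and 6132 in ABA seedlings and 11712 and 10511 in mock seedlings. LHCB1.2 and RBCS2B were higher by 0.63 and 0.42, and reads may have been divided between near copies in both families. LHCB1.2 lost its call without the DPA (adjusted p = 0.107) or the ABA (0.124) library of the higher size factor, RBCS2B without the DPA libraries (0.0789 and 0.103) or the ABA library of the higher size factor (0.13). The list had 1 higher gene without the DPA or ABA library of the higher size factor, 10 without the ABA library of the lower size factor and 7 without either mock library.
Among 12 mitotic genes only the cyclin CYCD3;1 was called, higher by 0.70 (8.33% of the list, beside 15.5% of all genes tested). Without either mock library, 2 mitotic genes were higher. Among 12 clock genes 1 was higher, LUX (8.33%, beside 15.5% of all genes tested). The 2 lower ones were TOC1 at -0.51 and ELF4 at -0.85 (16.7%, beside 18.6%). Neither share exceeded that of all genes, and CCA1 had a 95% interval of -0.37 to 0.03. LUX lost its call without the DPA or ABA library of the lower size factor, and 2 clock genes were higher without the mock libraries in turn.
Of 8 genes often used as internal references, 3 were higher and 2 lower: ACT2 had 9490 and 9004 in DPA seedlings, 6853 and 6756 in ABA seedlings and 10055 and 9893 in mock seedlings, while UBQ10 had 15685 and 14273 in DPA seedlings, 19724 and 20741 in ABA seedlings and 14887 and 15428 in mock seedlings. The ratio of these references thus differed between DPA and ABA seedlings, and UBQ10 lost its call without the DPA library of the lower size factor (adjusted p = 0.077).

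The ABRE was counted in the 250 bases before the start of 19603 tested genes, on both strands. ACGTGGC or ACGTGTC stood in 7.50% of all these promoters, in 15.3% of those of genes lower with DPA, in 3.58% of those of genes higher with DPA and in 6.22% of those not called. The share grew with the size of the difference, to 19.6% in genes lower by at least 2-fold and 29.5% in genes lower by at least 16-fold, and it was 2.59% in genes higher by at least 2-fold. The shorter ACGTG, which every such ABRE contains, stood in 23.9% of all promoters, in 35.7% of those lower, in 18.9% of those higher and in 21.7% of those not called. In the LEA list 10 of 23 promoters held the ABRE and 17 held ACGTG, while the alpha-expansins held 0 ABREs and ACGTG in 5 of 17. Some lists with more lower than higher genes lacked the longer ABRE. It stood in 0 of 12 promoters of proline and raffinose metabolism, 0 of 11 of suberin and cuticle synthesis, 0 of 18 of jasmonate and 0 of 18 of detoxification. The shorter ACGTG was present in all 4 lists, in 3, 3, 13 and 6 promoters. Its share was 72.2% in the jasmonate list, close to the 73.9% of the LEA list. The longer ABRE was not confined to genes that differed: 7 of the 12 clock promoters held it, where 3 genes were called, as did 7 of the 22 light harvesting and Rubisco promoters. HAI1, with a log2 difference of -6.89, held neither motif. These matches are a description of letters in a window and not of binding.

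**Figure D4:**
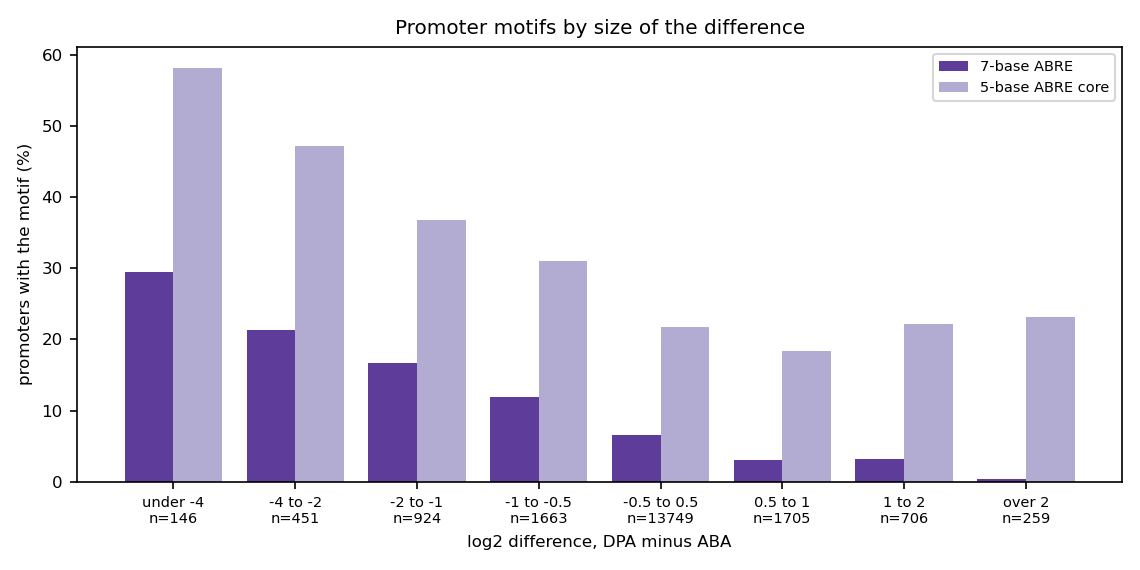
Share of promoters (%) that hold the 7-base ABRE (dark bars) or its 5-base core (light bars), by the log2 difference, DPA minus ABA, of the gene, with the number of promoters under each bin. The ABRE share is 29.5% in the bin under -4, 6.57% in the bin around 0 and 0.386% in the bin over 2.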

How the data were processed

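The authors deposited, for each compound against mock, a table of group means (a signal, called normalized counts here: reads divided by a size factor and averaged over 2 libraries), ratios of the means as fold changes, and p-values with adjusted p-values, per the file headers. Per the submitters' processing notes the tools were TopHat 1.4.1, HTSeq and DESeq 1.8.3 with TAIR10, and the role of each is not given in the sources used here. Per the labels' protocols, libraries were made from oligo(dT)-selected RNA with random hexamers, and no strand marking is stated, so reads of overlapping genes cannot be told apart.

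Because a group's mean adds 2 whole numbers of reads, each times a fixed step, both libraries' reads could be recovered for 100% of the values above 0, and tested on simulated means. Reads in no gene made 48.2% to 48.5% of the normalized totals and ambiguous reads 0.278% to 0.315%, and the 5 rows that name no gene were left out.

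limma 3.58.1 (R 4.3.3, with trend) was fitted to log2(normalized count + 1) in the 19617 genes that reached a mean of 10 over 4 groups and 8 libraries (4 residual and 5.369 prior degrees of freedom), with the contrast DPA minus ABA and Benjamini-Hochberg adjustment over these genes. Fold changes on this scale understate those of low genes. In simulated counts, 66% of 2-fold and 96% of 4-fold changes were recovered (100 genes each among 19617), with 6 false calls. Far fewer genes were changed there than were called in the data (34.1%). The spread was assumed, as the same function of the mean in all groups. These figures hold for that setting, and recovery and false calls in the real contrast may differ. Duplicates are labelled biological, and p-values measure only the spread between duplicates. The 4 groups shared a common estimate of this spread, so the PA and mock pairs also entered the error of DPA minus ABA. Counting intervals (exact, 95%) and the floor of 3 reads cover counting error only.

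Genes were named by rule: list members, the 10 largest differences in each direction with a mean of at least 50 in the higher group and no overlap of libraries, genes the authors called between DPA and mock, and the 5 called genes of highest mean with at least a 2-fold difference. The list members singled out in the text, and the promoters shown, were chosen after their values were seen. The comparison, gene lists and tests were chosen with earlier results of these data known. The share of a count that an overlapping gene could give was estimated from that gene's reads per base and the overlap. Positions, symbols and promoters were read by locus from TAIR10.1, which held 31912 of the 32678 loci.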

Additional observations from a re-analysis of the deposited data

How the results depend on the processing

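No gene called between DPA and ABA was called in the opposite direction under any alternative that was run (other pseudocounts, filters and scalings, DPA and ABA libraries alone, voom, single libraries left out, and the deposited log2 fold changes subtracted from each other). Subtracting deposited log2 fold changes, whose errors count mock in both terms, was the strictest, with 1802 calls, 621 higher and 1181 lower with DPA, and 27 list members higher and 77 lower. Of 121 single genes followed through the alternatives, 29 lost their call under this subtraction, which the paragraphs on single genes do not mark. At 2-fold or more, 27 list members were higher. Leaving out single libraries (those of PA and mock were added after seeing the data) gave 4579 to 7543 calls, 1921 to 3495 higher, 2615 to 4053 lower, 47 to 69 list members higher and 103 to 123 lower. AT3G09250, not called, turned to 0.0428 without the ABA library of the higher size factor and was -0.4648 without the other. Of 3 response regulators with no call, ARR8 ran from -0.0692 to 0.4587, ARR9 from -0.1684 to 0.3223 and ARR16 from -0.2126 to 0.1121 with single libraries left out, and ARR16 turned to 0.0406 under upper-quartile scaling. The cause was not tested. With ACGTG in place of the longer ABRE, the shares of promoters were 35.7% for genes lower with DPA, 18.89% for those higher, 21.68% for those not called and 23.85% for all tested. Depth limits genes with few reads, and the tested genes named with 3 reads or fewer in a group have a counting interval or a floor beside them. No paired analysis was possible because the deposited columns are group means that carry no replicate number.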
